A study of Mus musculus with 40 samples.

Results

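The genes that carry glucose into brain cells and break it down were followed in the hippocampus and frontal cortex of mice colonized with human stool. The set held 35 mouse genes chosen by symbol, and all 35 were found by their Ensembl identifier among the 47643 genes of each deposited table. It comprised 2 glucose transporters, 11 genes of upper glycolysis (hexokinase to triosephosphate isomerase), 6 of lower glycolysis (glyceraldehyde-phosphate dehydrogenase to pyruvate kinase), 2 lactate dehydrogenases, 3 glycerol phosphate dehydrogenases, 6 pentose phosphate genes and 5 glycogen genes. Glucose is the main fuel of the brain and crosses its vessel walls through GLUT1 (*Slc2a1*) and the neuronal membrane through GLUT3 (*Slc2a3*). Hexokinase traps it as glucose 6-phosphate, which glycolysis turns into pyruvate, the pentose phosphate pathway into NADPH and ribose phosphate, and astrocytes store as glycogen. Pyruvate is burned in mitochondria or reduced to lactate, and the glycerol phosphate shuttle passes cytosolic NADH to the respiratory chain. A ketogenic diet (KD) replaces most dietary glucose with fat and raises circulating ketone bodies, but here only the human donors ate it.

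Recipients were wild-type Swiss Webster mice (outbred) raised germ-free and gavaged with stool that 1 of 10 pediatric donors with refractory epilepsy gave before the KD (pre-KD) or after about a month on it (post-KD). The methods give the recipients as females aged 6 to 8 weeks. All were kept on standard chow, which the methods name as a control diet matched in vitamins and minerals, and their brains were taken 4 days after colonization. Each of the 20 cohorts gave 1 hippocampal and 1 frontal cortical library, for 10 libraries per region and condition, and each library pooled tissue from 6 mice. The cohort is thus the replicate, and the spread between mice is not seen. The shared features of all groups are the germ-free origin, the stated sex and age, the chow and a human microbiota, and uncolonized mice were not analysed here.

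Between 1140756 and 2095352 reads per library were counted on genes, of which *Gm42418*, a locus that overlaps ribosomal RNA sequence, held 8.63% to 18.02% and the 35 genes together 0.408% to 0.531%. Values are given as CPM, counts scaled to a common library total with TMM (edgeR's correction for library composition) over all 40 libraries. Markers of the labelled tissue separated the regions in part: the summed level of 5 hippocampal markers was 729.6 to 1192 CPM in hippocampus and 406 to 739.5 CPM in frontal cortex, where *Tdo2* had no count, while 5 cortical markers gave 190.3 to 440.3 CPM and 261 to 505 CPM. At an adjusted p under 0.05 by edgeR, 3 hippocampal markers were higher in hippocampus and 0 lower. Of the cortical markers 2 were lower in hippocampus and 1 was higher. In 4 of the 20 cohorts, 2 pre-KD and 2 post-KD, 4 Y-linked genes held 139 to 276 counts per library in both regions and *Xist* 6 to 42, while the other 16 cohorts had 0 to 27 and 487 to 1191. The counts of those 4 cohorts go against the stated female sex, and the main results were also computed without them. Tissue pieces of a pool can differ in cell mix, and in such bulk libraries fewer cells of a type and less RNA per cell cannot be told apart.

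*Aldoa* had the highest level per kilobase in both regions, whether all annotated exons or the longest coding transcript set the length, and the order below it depended on that length. Per kilobase of all annotated exons, *Aldoa*, the ubiquitous aldolase, stood at 258 ± 47.9 CPM per kilobase in hippocampus and 269.8 ± 34.7 in frontal cortex (SD, n = 20 libraries), and *Aldoc*, the brain aldolase enriched in astrocytes, at 146 ± 22.3 and 153 ± 18.1. They were followed by *Eno2*, the neuronal enolase (120.1 and 147), *Ldhb*, the heart-type lactate dehydrogenase subunit (111 and 149.7), *Pkm*, muscle-type pyruvate kinase (88.6 and 106), and *Tpi1*, triosephosphate isomerase (60.9 and 54). *Aldoa* lay above *Aldoc*, and *Pkm* above *Tpi1*, by more than the SD of either gene in both regions, and *Ldhb* above *Pkm* in frontal cortex. The other neighbours in this order differed by less than the larger of their SDs in at least 1 region, and *Eno2* and *Ldhb* changed places between the regions. Per kilobase of the longest coding transcript, *Aldoa* (485 and 507 CPM per kilobase in hippocampus and frontal cortex) was followed by *Eno2* (202 and 247) and *Pkm* (182 and 218), and *Aldoc* (171 and 179) came in place 4 and 5. At the low end per kilobase of all exons were *Pfkfb2*, a kinase and phosphatase that sets the level of a phosphofructokinase activator (0.356 and 0.240), *Hk2*, the insulin-responsive hexokinase (0.537 and 0.786), and *Pgk1*, the first ATP-yielding kinase of glycolysis (2.03 and 1.36). The methods and the labels name a full-length library kit, while a list of reagents in the study names a kit that reads transcripts at their 3′ end, and with the second kit values per kilobase would not rank transcripts. The 5 genes with the most counts held 57.2% of all counts of the set, and the 10 with the fewest held 2.58%.

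**Figure D1:**
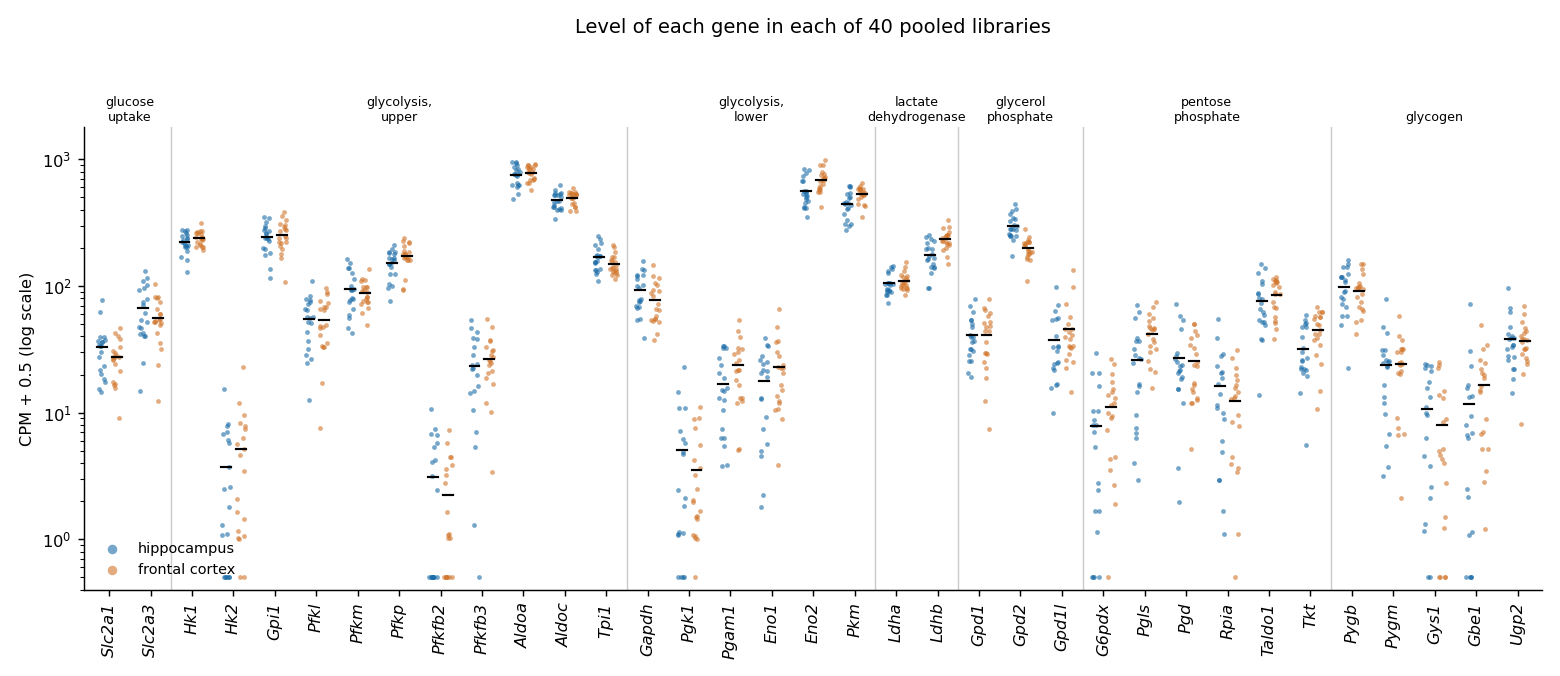
Levels of the 35 genes in CPM on a log axis (0.5 CPM added), grouped by role, with 1 point per library, 20 hippocampal and 20 frontal cortical in separate colours, and bars at the mean of each region. In CPM, which is not divided by length, *Aldoa*, *Eno2*, *Aldoc* and *Pkm* lie highest, and *Pfkfb2*, *Hk2* and *Pgk1* fall to 0 counts in some libraries.

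*Pgk1*, a gene of low counts, and *Gapdh*, glyceraldehyde-phosphate dehydrogenase, share extensive sequence with processed pseudogenes. Of all 69-base windows (the read length) in annotated exons, 53.04% of those of *Pgk1* occurred identically in another annotated gene, 35.2% of those of *Pgam1* (phosphoglycerate mutase), 23.7% of those of *Eno1* (the broadly expressed enolase) and 23.1% of those of *Gapdh*, where 127 pseudogenes shared at least 1 window. A read pair with both mates in such windows cannot be assigned to 1 gene, and how such pairs were treated is not given in the sources used here. The pseudogenes of *Gapdh* held 757 counts over all libraries against 5441 for the gene itself, and those of *Pgk1* held 0 against 240. The sequences below are 1 shared coding window of each gene, read from GRCm38 and given 5′ to 3′ on the gene's strand, in capitals throughout because all bases are shared. The *Gapdh* window (exon 4, chr6:125162873-125162941, minus strand) occurs in 54 other genes, 51 of them pseudogenes, that of *Pgk1* (exon 8, chrX:106200208-106200276, plus strand) in 3 pseudogenes, that of *Pgam1* (exon 2, chr19:41915672-41915740, plus strand) in 2 pseudogenes, and that of *Eno1* (exon 7, chr4:150245115-150245183, plus strand) in 5 other genes, 4 of them pseudogenes.
Gapdh: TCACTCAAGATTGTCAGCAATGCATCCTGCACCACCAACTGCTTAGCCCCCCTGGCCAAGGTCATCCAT
Pgk1: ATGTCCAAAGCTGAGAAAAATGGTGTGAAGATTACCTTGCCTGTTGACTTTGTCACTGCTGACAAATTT
Pgam1: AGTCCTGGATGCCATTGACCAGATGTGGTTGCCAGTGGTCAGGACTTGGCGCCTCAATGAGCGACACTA
Eno1: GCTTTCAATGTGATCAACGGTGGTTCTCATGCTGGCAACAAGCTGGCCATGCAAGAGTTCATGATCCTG
Values of these 4 genes are therefore uncertain as levels of the gene alone. The limit is not confined to them: of the genes called between regions further on, *Pkm* shared 19.5% of its windows with 3 other genes, 2 of them pseudogenes that held 13 counts, *Pgls* 18.2% with 1 other gene and *Ldhb* 14.1%.

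The study asked whether a post-KD microbiota changes the brain of its recipients, and within each region edgeR's quasi-likelihood test set post-KD against pre-KD cohorts, with p-values adjusted by Benjamini-Hochberg over the whole table. No gene of the set passed an adjusted p of 0.05 in either region, that is 0 of 35 in the hippocampus, where the share of all 17529 genes that passed was 0.0057%, and 0 of 35 in the frontal cortex, where it was 0.0056% of 17873. At an unadjusted p under 0.05 there was 1 gene of 35 in the hippocampus (*Pgls*, lower post-KD) beside 10.1% of all genes, and 2 of 35 in the frontal cortex (*Ldhb*, higher, and *Ugp2*, lower) beside 9.68% of all genes. DESeq2 and limma-voom also called 0 of 35 in both regions after adjustment, beside 0 and 0.0057% of all genes in hippocampus and 0.0112% and 0.0168% in frontal cortex, with 1 and 2 of 35 at an unadjusted p under 0.05 in hippocampus, beside 3.42% and 5.49% of all genes, and 2 and 4 of 35 in frontal cortex, beside 4.62% and 5.99%. In simulated data edgeR passed rarely counted genes at the unadjusted threshold more often than its nominal rate. Whether this bears on the shares above was not tested. No marker of another cell type was called between conditions in either region. By sign alone, 13 genes were higher and 22 lower post-KD in the hippocampus, with a median log2 fold change of -0.06 against -0.01 over all genes, and 23 were higher and 12 lower in the frontal cortex, with a median of 0.10 against 0.01. These signs and medians moved with single donors: without donor 4 the hippocampal genes were 17 higher and 18 lower (median -0.02), and without donor 2 the frontal cortical ones were 19 and 16 (median 0.01). Over all left-out donors the medians ran from -0.09 to -0.02 in hippocampus and from 0.01 to 0.12 in frontal cortex. Without the 4 cohorts with Y-linked counts they were -0.02 (15 higher, 20 lower) and 0.07 (22 higher, 13 lower). The summed level of all 35 genes was 4458 ± 458 CPM pre-KD and 4427 ± 308 CPM post-KD in hippocampus, and 4641 ± 297 and 4806 ± 362 CPM in frontal cortex (SD, n = 10 each).

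How large a difference could have gone unseen depended on the gene. The 95% interval of the post-KD difference lay inside a 1.5-fold change in either direction for 13 of the 35 genes in hippocampus and 16 in frontal cortex, and was narrowest for *Aldoa* in both. It lay inside a 2-fold change for 19 and 21, and inside a 4-fold change for 29 and 33. The widest intervals belonged to *Pfkfb2* in both regions, reaching 2.83 and 2.53 to each side on the log2 scale. For the other 6 genes in hippocampus and 2 in frontal cortex, the interval reached past a 4-fold change.

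**Figure D2:**
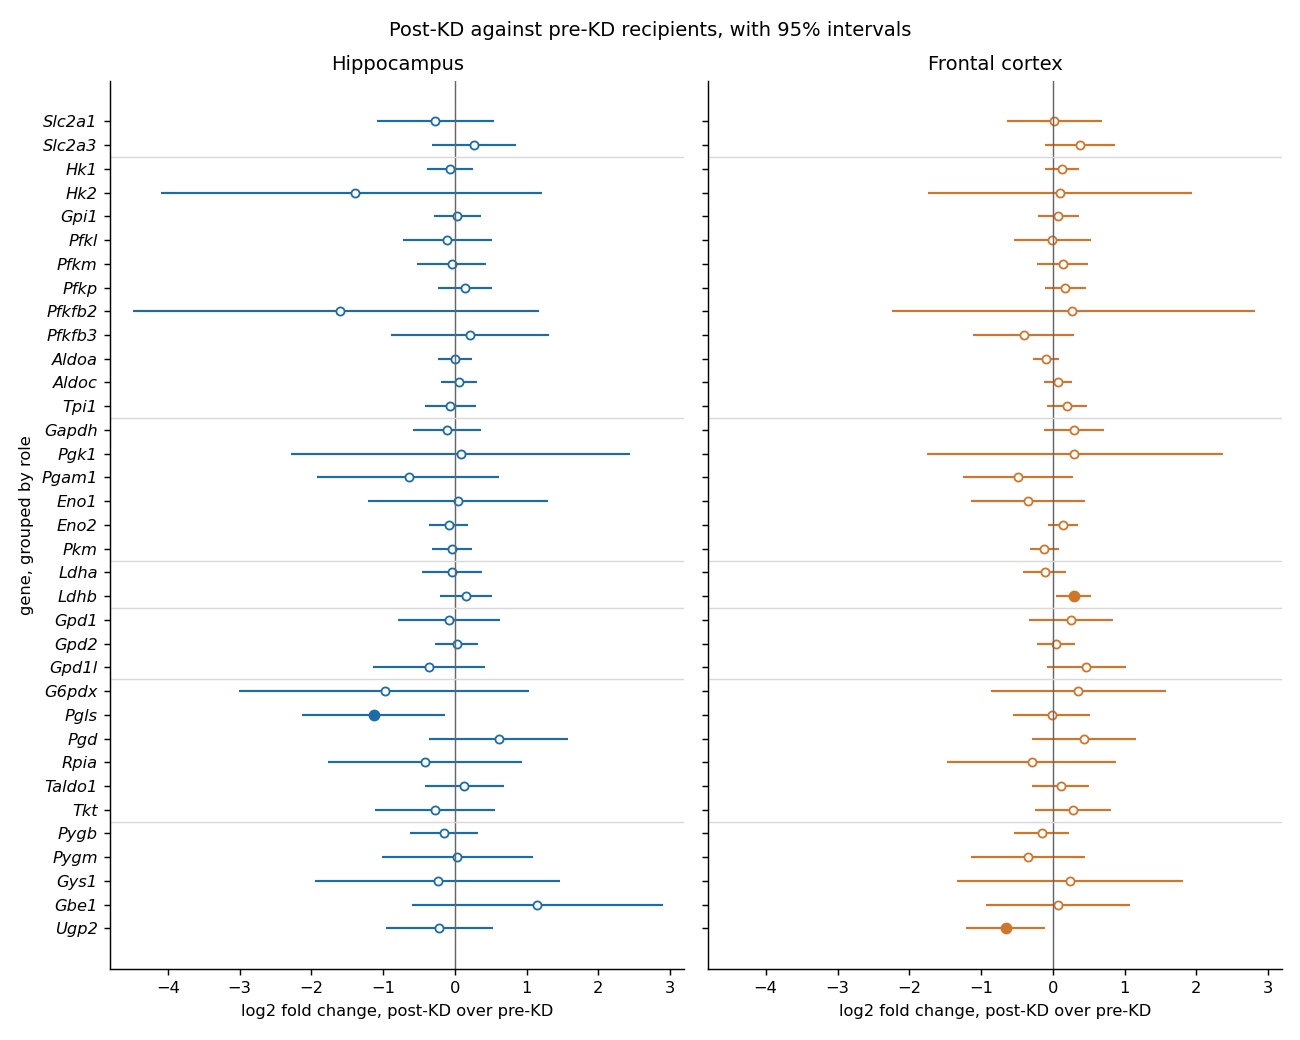
Log2 fold change of post-KD against pre-KD cohorts for each of the 35 genes, in hippocampus and frontal cortex, with 95% intervals from edgeR (n = 10 libraries per condition). Filled points mark the unadjusted p under 0.05 of *Pgls* in hippocampus and of *Ldhb* and *Ugp2* in frontal cortex, and all other intervals cross 0.

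Of the glucose transporters, *Slc2a1* ran from 14.1 to 77.6 CPM (median 32.5) in pre-KD and from 14.9 to 39.4 CPM (median 33.2) in post-KD hippocampus, and the narrower post-KD range lay wholly within the pre-KD range. Its test gave a log2 fold change of -0.27 (SE 0.41, 95% interval -1.09 to 0.54, unadjusted p = 0.506, adjusted p = 1). In the frontal cortex it ran from 15.1 to 41.98 CPM (median 25.7) pre-KD and from 8.55 to 46.3 CPM (median 27.2) post-KD, with a log2 fold change of 0.02 (SE 0.33, 95% interval -0.64 to 0.68, unadjusted p = 0.948, adjusted p = 0.998). Without the 4 cohorts with Y-linked counts these log2 differences were 0.09 and -0.16. With 1 donor at a time left out they ran from -0.41 to 0.006 in hippocampus and from -0.10 to 0.16 in frontal cortex. The sign turned for 1 and 5 of 10 left-out donors. Per kilobase of all exons *Slc2a1* and *Slc2a3*, the neuronal transporter, stood at 9.23 and 9.18 CPM per kilobase in hippocampus and 7.64 and 7.69 in frontal cortex, but per kilobase of the longest coding transcript at 9.93 and 16.8 and at 8.22 and 14.1. *Slc2a3* averaged 60.3 ± 23.3 and 72.7 ± 39.5 CPM in hippocampus and 48.4 ± 15.4 and 63.02 ± 25.4 CPM in frontal cortex, pre-KD and post-KD in turn. The post-KD value exceeded the pre-KD one for 6 and 8 of 10 donors, with log2 fold changes of 0.26 and 0.38 whose intervals (-0.32 to 0.85 and -0.11 to 0.86) included 0.

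In upper glycolysis, *Hk1*, the hexokinase bound to neuronal mitochondria, ran from 128 to 271 CPM (median 231) pre-KD and from 161 to 279 CPM (median 208) post-KD in hippocampus, with overlapping groups. The test gave a log2 fold change of -0.07 (SE 0.16, 95% interval -0.39 to 0.26, unadjusted p = 0.683, adjusted p = 1), and in the frontal cortex, where the means were 229 ± 30.2 and 250.1 ± 28.95 CPM, it gave a log2 fold change of 0.13 (SE 0.12, 95% interval -0.11 to 0.36, unadjusted p = 0.290, adjusted p = 0.944). Leaving out 1 donor at a time gave -0.18 to -0.02 in hippocampus and 0.08 to 0.18 in frontal cortex. *Hk2* had no count in 6 hippocampal and 2 frontal cortical libraries and exceeded its pre-KD value for 1 of 10 donors in hippocampus and for 7 of 10 in frontal cortex, with intervals of -4.09 to 1.22 and -1.73 to 1.93 on the log2 scale. *Gpi1*, glucose-6-phosphate isomerase, averaged 239 ± 84.1 and 247 ± 37.5 CPM in hippocampus and 246 ± 58.6 and 259.6 ± 77.2 CPM in frontal cortex. Of the phosphofructokinase subunits that commit sugar to glycolysis, *Pfkm* (muscle type) was highest per kilobase of all exons, at 28.05 and 26.2 CPM per kilobase in hippocampus and frontal cortex, above *Pfkp* (platelet type, 11.2 and 12.9) and *Pfkl* (liver type, 8.19 and 8.02). Per kilobase of the longest coding transcript the first places turned, with *Pfkp* at 36.3 and 41.8 and *Pfkm* at 32.5 and 30.4. Their 6 log2 differences between conditions lay between -0.11 and 0.18. *Pfkfb3*, which makes the phosphofructokinase activator fructose 2,6-bisphosphate, had log2 differences of 0.21 in hippocampus and -0.40 in frontal cortex, and *Pfkfb2*, with 84 and 60 counts in all over the 20 libraries of each region, had -1.60 and 0.27. The aldolases were the most precisely measured: the intervals of *Aldoa* were -0.24 to 0.24 in hippocampus and -0.28 to 0.09 in frontal cortex, and those of *Aldoc* -0.20 to 0.31 and -0.13 to 0.27.

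In lower glycolysis, *Gapdh* ran from 38.7 to 158 CPM (median 97.1) pre-KD and from 53.8 to 134 CPM (median 77.5) post-KD in hippocampus, with a log2 fold change of -0.11 (SE 0.24, 95% interval -0.58 to 0.36, unadjusted p = 0.645, adjusted p = 1). The sign of this difference turned with limma-voom, without donor 5 or 9 and without the 4 cohorts with Y-linked counts. In frontal cortex *Gapdh* averaged 69.5 ± 34.01 and 85.01 ± 23.4 CPM, with a log2 fold change of 0.29 (SE 0.21, 95% interval -0.12 to 0.71, unadjusted p = 0.166, adjusted p = 0.844). It ran from 0.18 to 0.54 as 1 donor at a time was left out. Without the 4 cohorts with Y-linked counts this log2 fold change was 0.69 (edgeR adjusted p = 0.240, the lowest of the 35 genes there). In that setting 2 of the 35 genes had an unadjusted p under 0.05, beside 9.21% of all genes. *Pkm*, which makes pyruvate, ran from 295 to 619 CPM (median 432) and from 279 to 614 CPM (median 448) in hippocampus, with a log2 fold change of -0.04 (SE 0.14, 95% interval -0.32 to 0.24, unadjusted p = 0.756, adjusted p = 1). The sign of this *Pkm* difference turned without donor 1, 3 or 4. The frontal cortical values of *Pkm* ran from 441 to 591 CPM (median 561) and from 349 to 645 CPM (median 512), so the post-KD libraries spread beyond the pre-KD libraries on both sides, with a log2 fold change of -0.12 (SE 0.10, 95% interval -0.32 to 0.09, unadjusted p = 0.255, adjusted p = 0.926). *Eno2* averaged 580.2 ± 154 and 550.1 ± 143 CPM in hippocampus and 656 ± 136 and 726 ± 133 CPM in frontal cortex, with a higher post-KD value for 6 and 8 of 10 donors. *Pgk1*, *Pgam1* and *Eno1*, the genes with much shared sequence, had means of 2.72 to 26.9 CPM over the 4 groups and intervals that reached 0.76 to 2.37 to each side on the log2 scale.

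The lactate dehydrogenase tetramer is built of A subunits (*Ldha*), which favour lactate formation, and B subunits (*Ldhb*), which favour its oxidation. *Ldhb* had the smallest unadjusted p of the set in the frontal cortex, where it ran from 150.1 to 251 CPM (median 216) pre-KD and from 216 to 334 CPM (median 254) post-KD. The post-KD cohort had the higher value for 9 of 10 donors, although the groups overlapped. The test gave a log2 fold change of 0.29 (SE 0.12, 95% interval 0.05 to 0.53, unadjusted p = 0.0191, adjusted p = 0.294). The unadjusted p by edgeR rose to 0.121 without donor 8, with a log2 difference of 0.19, and to 0.0618 without the 4 cohorts with Y-linked counts. In the hippocampus it ran from 96.8 to 251 CPM (median 164) and from 96.6 to 244 CPM (median 186), with the higher value post-KD for 7 of 10 donors and a log2 fold change of 0.15 (SE 0.18, 95% interval -0.21 to 0.51, unadjusted p = 0.416, adjusted p = 1). Leaving out 1 donor at a time moved this value between 0.08 (without donor 3) and 0.26 (without donor 6). A pseudogene that shares 14.1% of the windows of *Ldhb* held 545 counts over all libraries, against 13313 for *Ldhb*. *Ldha* averaged 106 ± 19.1 and 104 ± 22.4 CPM in hippocampus, with a log2 fold change of -0.04 (SE 0.21, 95% interval -0.46 to 0.38, unadjusted p = 0.853, adjusted p = 1), and 114 ± 21.8 and 105 ± 11.3 CPM in frontal cortex, with a log2 fold change of -0.11 (SE 0.15, 95% interval -0.42 to 0.19, unadjusted p = 0.457, adjusted p = 0.981).

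Of the glycerol phosphate dehydrogenases, *Gpd2*, the mitochondrial flavoprotein of the shuttle, averaged 296 ± 47.9 and 303 ± 83.7 CPM in hippocampus and 196 ± 27.8 and 202 ± 44.3 CPM in frontal cortex. Its intervals for post-KD against pre-KD were -0.28 to 0.33 and -0.22 to 0.30 on the log2 scale. *Gpd1*, the cytosolic partner, stood at 37.2 to 44.5 CPM over the 4 group means. *Gpd1l*, a related cytosolic enzyme, had log2 differences of -0.36 (interval -1.14 to 0.42) in hippocampus and 0.47 (interval -0.09 to 1.03) in frontal cortex.

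In the pentose phosphate pathway, *Pgls* (6-phosphogluconolactonase, the enzyme of the second oxidative step) was the gene with an unadjusted p under 0.05 in hippocampus. Its level ran from 3.48 to 70.1 CPM (median 33.7) pre-KD and from 2.42 to 38.2 CPM (median 14.96) post-KD, and the post-KD cohort had the higher value for 2 of 10 donors. The groups overlapped, and the test gave a log2 fold change of -1.13 (SE 0.50, 95% interval -2.13 to -0.14, unadjusted p = 0.0261, adjusted p = 0.328). The unadjusted p rose above 0.05 without donor 1, 4, 6 or 8 and with a donor term in edgeR. In frontal cortex *Pgls* averaged 41.7 ± 15.6 and 41.3 ± 16.7 CPM, a log2 difference of -0.02 (interval -0.55 to 0.52). Some *Pgls* exons overlap those of *Fam129c* on the same strand over 776 bases, and *Fam129c* held 61 counts. *G6pdx*, the X-linked rate-limiting dehydrogenase of the pathway, ran from 0 to 29.3 CPM (median 7.40) and from 0 to 15.7 CPM (median 3.40) in hippocampus, with no count in 4 libraries, and a log2 fold change of -0.98 (SE 1.02, 95% interval -3.01 to 1.04, unadjusted p = 0.335, adjusted p = 1). This value ran from -1.53 without donor 7 to -0.49 without donor 10, and was -0.36 without the 4 cohorts with Y-linked counts. In frontal cortex it ran from 1.41 to 17.04 CPM (median 9.15) and from 0 to 25.9 CPM (median 12.9), with a log2 fold change of 0.36 (SE 0.61, 95% interval -0.86 to 1.58, unadjusted p = 0.558, adjusted p = 0.996), and the sign turned in 3 alternative analyses. With 1 donor at a time left out this value ran from 0.10 to 0.60. *Pgd*, the NADPH-making decarboxylase that follows, had log2 differences of 0.61 and 0.43, and *Rpia*, ribose-5-phosphate isomerase, -0.41 and -0.30. The transferases of the non-oxidative branch had log2 differences of 0.13 and 0.11 (*Taldo1*) and -0.28 and 0.28 (*Tkt*), and all these intervals included 0.

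Among the glycogen genes, *Ugp2*, which makes the UDP-glucose that glycogen is built from, ran from 25.3 to 69.3 CPM (median 40.9) in pre-KD and from 7.66 to 43.4 CPM (median 29.9) in post-KD frontal cortex. The post-KD value was the higher one for 2 of 10 donors, and the groups overlapped. The test gave a log2 fold change of -0.66 (SE 0.28, 95% interval -1.22 to -0.10, unadjusted p = 0.0209, adjusted p = 0.310). The unadjusted p by edgeR rose to 0.0561 without donor 5, 0.0689 without donor 9 and 0.106 without the 4 cohorts with Y-linked counts. In the hippocampus it averaged 40.4 ± 24.4 and 34.9 ± 11.9 CPM, the post-KD value being higher for 7 of 10 donors, with a log2 difference of -0.22 (interval -0.96 to 0.53). The glycogen phosphorylases, which release glucose 1-phosphate, had log2 differences of -0.15 and -0.15 (*Pygb*, the brain form) and 0.03 and -0.34 (*Pygm*, the form that astrocytes also make). *Gys1*, glycogen synthase, and *Gbe1*, the branching enzyme, had intervals of -1.95 to 1.47 and -0.59 to 2.90 in hippocampus and of -1.33 to 1.82 and -0.94 to 1.07 in frontal cortex.

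Both regions of a cohort came from the same mice, and the second comparison set hippocampus against frontal cortex over all 40 libraries with a term for each cohort. Of the 35 genes 5 passed an adjusted p of 0.05 (14.29%), 1 higher and 4 lower in hippocampus, where 2.85% of all 19422 genes passed. At an unadjusted p under 0.05 there were 7 of 35 against 10.9% of all genes. *Gpd2* was higher in hippocampus, and *Ldhb*, *Eno2*, *Pkm* and *Pgls* were lower. The median log2 difference was -0.07 over the 35 genes and -0.17 over all genes, and the order of these medians turned with limma-voom (-0.05 and -0.00278) and without the cohort block (-0.06 and -0.01). Other tissue differed with the region too: the summed level of 8 choroid plexus markers was 469 to 4339 CPM in hippocampus and 1.57 to 592 CPM in frontal cortex (5 of 8 called higher), and that of the striatal markers was 2.91 to 182 and 293 to 715 CPM (5 of 5 tested called lower in hippocampus, where *Drd2* had no count). Of 8 genes each, 1 neuronal and 1 astrocytic marker were called lower in hippocampus and 0 oligodendrocytic, endothelial or microglial ones, with summed medians of 5876 and 6104, 2588 and 2436, 2622 and 2782, 197 and 251, and 216 and 227 CPM in hippocampus and frontal cortex. The part of these cell differences in the results was not tested. Each region was deposited as its own table, and the labels name no library batch. Whether the regions were also prepared or sequenced apart is not known, and such a difference could not be told from that of region.

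**Figure D3:**
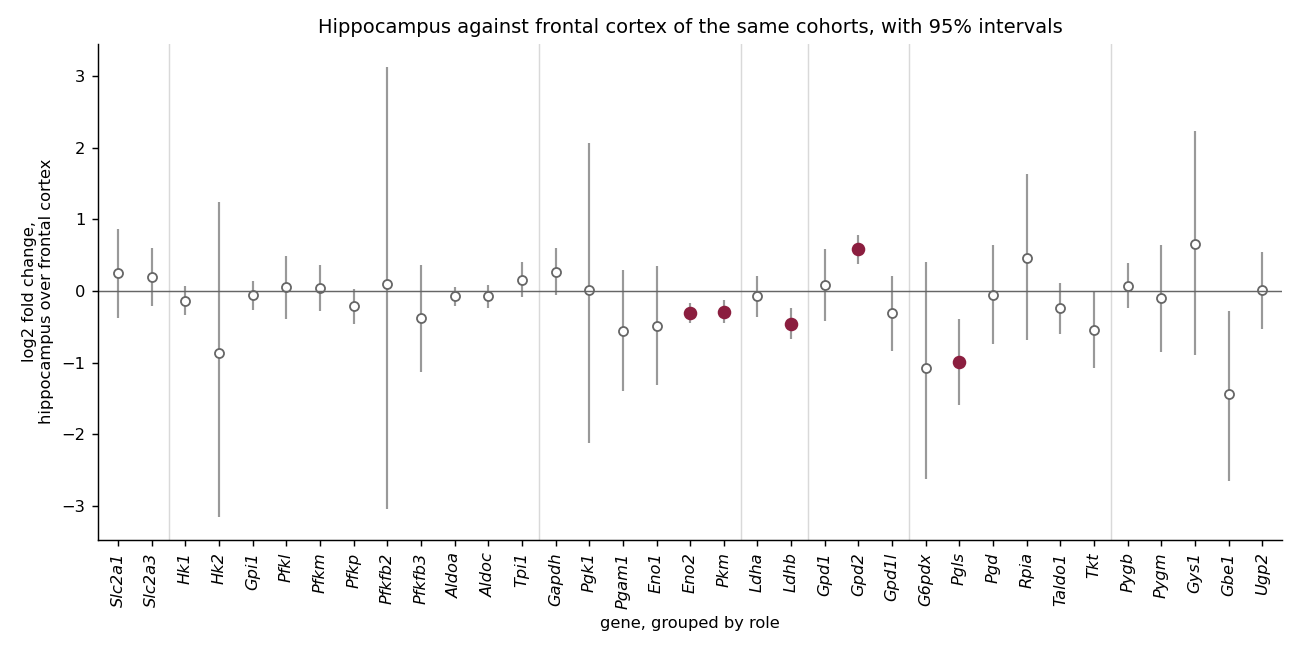
Log2 difference of hippocampus minus frontal cortex for each of the 35 genes, with 95% intervals from edgeR over 20 cohorts. Filled points mark the 5 genes with an adjusted p under 0.05, *Gpd2* above 0 and *Ldhb*, *Eno2*, *Pkm* and *Pgls* below it.

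*Gpd2* (ENSMUSG00000026827, chr2:57237635-57370719) ran from 173 to 446 CPM (median 279) in hippocampus and from 110.0 to 279 CPM (median 201) in frontal cortex. It was higher in hippocampus in 19 of 20 cohorts, and 12 hippocampal libraries lay above all frontal cortical ones. The group means were 299.6 ± 66.5 and 199 ± 36.1 CPM (SD, n = 20), a log2 difference of 0.58 (SE 0.10, 95% interval 0.38 to 0.78, edgeR adjusted p = 3.31e-06). The cytosolic enzymes did not pass the test, with *Gpd1* at 0.08 (interval -0.42 to 0.59) and *Gpd1l* at -0.31 (interval -0.83 to 0.21). The noncoding gene *A930012O16Rik* overlaps *Gpd2* exons on the opposite strand over 487 bases and held 21 counts, and the strand setting of the counting is not given in the sources used here.

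*Ldhb*, *Eno2* and *Pkm* act at the end of glycolysis or on its product. *Ldhb* (ENSMUSG00000030246, chr6:142490249-142507957) ran from 96.6 to 251 CPM (median 169) in hippocampus and from 150.1 to 334 CPM (median 233) in frontal cortex and was lower in hippocampus in 18 of 20 cohorts, with a log2 difference of -0.45 (SE 0.11, 95% interval -0.67 to -0.24, edgeR adjusted p = 0.00286). *Eno2* (ENSMUSG00000004267, chr6:124760053-124769673) ran from 352 to 846 CPM (median 529.8) and from 422 to 980.4 CPM (median 684), with broad overlap, and was lower in 17 of 20 cohorts, with a log2 difference of -0.31 (SE 0.07, 95% interval -0.45 to -0.16, edgeR adjusted p = 0.00255). *Pkm* (ENSMUSG00000032294, chr9:59656368-59679375) ran from 279 to 619 CPM (median 445) and from 349 to 645 CPM (median 544) and was lower in 16 of 20 cohorts, with a log2 difference of -0.29 (SE 0.08, 95% interval -0.45 to -0.13, edgeR adjusted p = 0.0185). The *Eno2* call was lost with limma-voom (adjusted p = 0.114). The *Pkm* call was lost without donor 2, 4, 5, 6 or 7 (adjusted p = 0.0595, 0.0513, 0.0682, 0.0916 and 0.0706) and under 3 other alternatives, whereas *Gpd2* and *Ldhb* passed in every alternative run.

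*Pgls* (ENSMUSG00000031807, chr8:71592176-71601092) ran from 2.42 to 70.1 CPM (median 25.1) in hippocampus and from 15.1 to 74.7 CPM (median 42.7) in frontal cortex and was lower in hippocampus in 15 of 20 cohorts. The log2 difference was -0.99 (SE 0.30, 95% interval -1.59 to -0.40, edgeR adjusted p = 0.0413). The means were 35.2 and 41.7 CPM in hippocampus and frontal cortex of the pre-KD cohorts and 16.2 and 41.3 CPM in those of the post-KD cohorts, so most of the difference in means lay in the post-KD cohorts. The interaction term was -0.97 (interval -2.16 to 0.22, unadjusted p = 0.1095, adjusted p = 1 by edgeR), so the conditions are not shown to differ in it. The call was lost without donor 2, 4, 5, 6, 9 or 10 (adjusted p = 0.107, 0.105, 0.0930, 0.165, 0.0640 and 0.137) and without the 4 cohorts with Y-linked counts (adjusted p = 0.205), where the 4 other called genes passed. It was also lost under 5 other alternatives, among them limma-voom, where the log2 difference was -0.55 (adjusted p = 0.489). The next genes by unadjusted p were *Gbe1*, at -1.44 (interval -2.65 to -0.28, adjusted p = 0.257 by edgeR), and *Tkt*, at -0.54 (interval -1.08 to -0.01, adjusted p = 0.448 by edgeR). Of the 6 pentose phosphate genes *Pgls* alone passed the test.

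**Figure D4:**
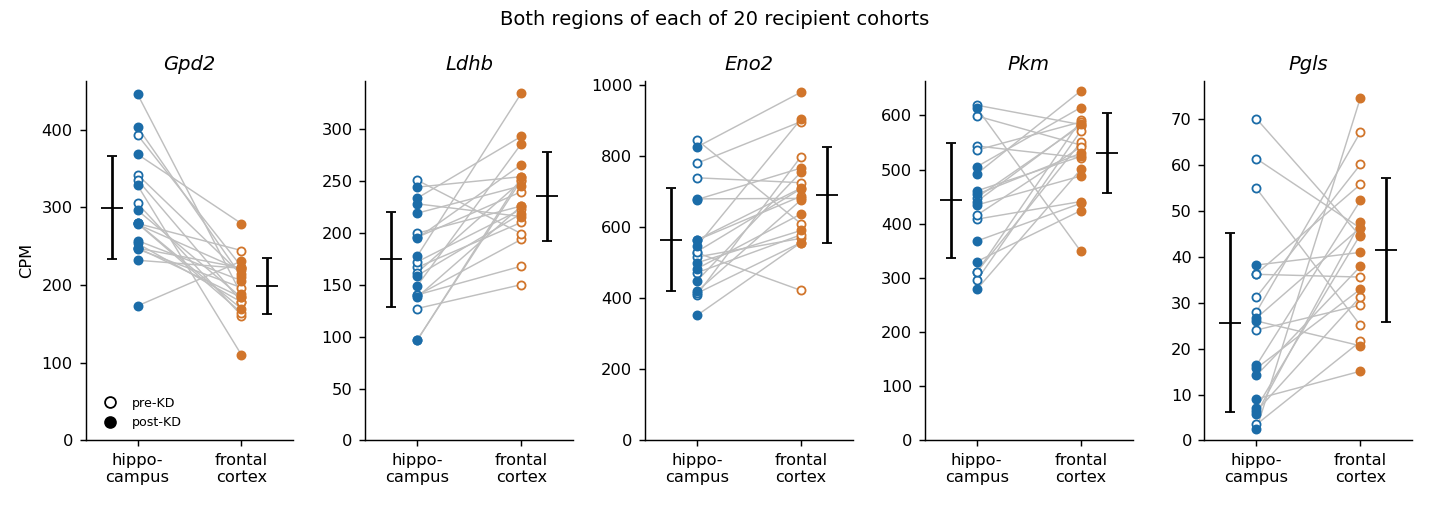
CPM of *Gpd2*, *Ldhb*, *Eno2*, *Pkm* and *Pgls* in hippocampus and frontal cortex, with a line joining both regions of each of the 20 cohorts, open symbols pre-KD, filled symbols post-KD, and bars at the mean ± SD. The lines of *Gpd2* fall from hippocampus to frontal cortex in 19 of 20 cohorts, and those of *Ldhb* rise in 18 of 20.

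The remaining enzymes with several isoforms gave region differences whose intervals included 0. *Hk1* and *Hk2* were at -0.13 (interval -0.34 to 0.07) and -0.87 (interval -3.15 to 1.24) on the log2 scale. The phosphofructokinase subunits *Pfkl*, *Pfkm* and *Pfkp* were at 0.05 (-0.39 to 0.49), 0.04 (-0.28 to 0.36) and -0.21 (-0.45 to 0.03), and *Pfkfb2* and *Pfkfb3* at 0.10 (-3.04 to 3.13) and -0.38 (-1.13 to 0.36). *Aldoa* and *Aldoc*, with the narrowest intervals of these, were at -0.08 (-0.21 to 0.06) and -0.07 (-0.23 to 0.09). *Eno1* was at -0.48 (-1.31 to 0.34), *Ldha* at -0.07 (-0.36 to 0.21), *Pygb* at 0.07 (-0.24 to 0.39) and *Pygm* at -0.10 (-0.85 to 0.65). *Slc2a1* and *Slc2a3* were both higher in hippocampus by sign, at 0.25 (-0.37 to 0.87) and 0.20 (-0.21 to 0.60).

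The promoters of the 5 called genes were searched for letters known from glycolytic genes. Those of *Eno2*, of both *Pkm* starts and of 1 *Gpd2* start overlapped annotated untranslated regions by 61 to 208 bases and are not shown. The promoters of *Gpd2*, *Ldhb* and *Pgls* below overlapped them by 0 to 8 bases. Each is the 250 bases before a RefSeq transcription start on GRCm38.p6, 5′ to 3′ on the gene's strand, in lower case. Capitals mark the core of the hypoxia response element (ACGTG or GCGTG, either strand), which HIF-1, an activator of glycolytic genes, binds, or the GC box of Sp1 (GGGCGG, either strand).
Gpd2 (chr2:57237428-57237677, plus strand): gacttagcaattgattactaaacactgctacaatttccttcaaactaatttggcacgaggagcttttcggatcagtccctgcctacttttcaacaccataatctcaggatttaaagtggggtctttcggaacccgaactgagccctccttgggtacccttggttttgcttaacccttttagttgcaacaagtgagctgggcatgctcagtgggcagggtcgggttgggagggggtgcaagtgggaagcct
Ldhb (chr6:142507958-142508207, minus strand): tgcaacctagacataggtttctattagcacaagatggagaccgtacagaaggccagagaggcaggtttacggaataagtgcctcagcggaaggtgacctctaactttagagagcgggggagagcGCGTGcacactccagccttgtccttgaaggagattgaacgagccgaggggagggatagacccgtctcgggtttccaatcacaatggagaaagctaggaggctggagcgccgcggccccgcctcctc
Pgls (chr8:71591934-71592183, plus strand): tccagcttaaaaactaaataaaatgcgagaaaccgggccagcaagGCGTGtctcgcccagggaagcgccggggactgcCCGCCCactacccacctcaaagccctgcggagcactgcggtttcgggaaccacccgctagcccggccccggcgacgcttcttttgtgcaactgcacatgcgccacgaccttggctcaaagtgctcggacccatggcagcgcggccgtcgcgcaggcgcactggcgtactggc
The *Ldhb* window held 1 hypoxia core, the *Pgls* window 1 hypoxia core and 1 GC box, and the *Gpd2* window shown neither. The window of the other *Gpd2* start held 1 of each, those of both *Pkm* starts 1 GC box and 1 hypoxia core in turn, and that of *Eno2* neither. Over all genes of the set that were matched in the promoter table (33 of 35), 38 of 50 promoters (76%) held the core, against 38.6% of all 32851 promoters of the same length. The GC box was in 52% and 32.7%, and the full E-box CACGTG, which contains the hypoxia core, in 10% and 6.02%. The GC content of the windows had a median of 60% in the set and 52.4% in all promoters and the shares were not compared at equal base composition.

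Whether the post-KD difference itself depended on the region was tested by an interaction term. Of the 35 genes 0 passed an adjusted p of 0.05, beside 0.0154% of all 19422 genes, and 0 had an unadjusted p under 0.05, beside 2.22%, by edgeR with the cohort as a block. DESeq2 also called 0 of 35 (and 0 of all genes), with 1 at an unadjusted p under 0.05 beside 4.89% of all genes. Without the 4 cohorts with Y-linked counts edgeR gave 0 and 2 of 35, beside 0.0106% and 2.35% of all genes. The gene closest to the unadjusted threshold was *Gpd1l*, whose post-KD difference in hippocampus minus that in frontal cortex was -1.03 on the log2 scale (interval -2.08 to 0.00, unadjusted p = 0.0508 by edgeR). The post-KD differences are therefore not shown to differ between the regions.

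Ratios of 2 isozymes within a library need no scaling, and 10 pairs were compared in 3 ways, between conditions in each region and between regions, by permutation tests with 100000 resamples adjusted over all 30. After adjustment 0 of 30 passed, and 3 had an unadjusted p under 0.05. The lowest p was that of the ratio of *Ldha* to *Ldhb*, the subunits of the lactate dehydrogenase tetramer. In frontal cortex its mean log2 ratio was -0.89 ± 0.33 pre-KD and -1.29 ± 0.27 post-KD (SD, n = 10 each), lower post-KD for 7 of 10 donors (permutation test, two-sided, p = 0.00891, adjusted p = 0.247). In hippocampus it was -0.61 ± 0.55 and -0.80 ± 0.43 (permutation test, p = 0.399, adjusted p = 0.950). The share of *Ldhb* in the counts of both genes was 60.2% and 63.4% in hippocampus and 64.9% and 70.9% in frontal cortex, pre-KD and post-KD. Between regions the ratio was higher in hippocampus in 16 of 20 cohorts, with a mean log2 difference of 0.38 (permutation test over cohorts, p = 0.0164, adjusted p = 0.247), and the ratio of *Gpd1* to *Gpd2* was lower in hippocampus in 13 of 20, with a mean log2 difference of -0.48 (permutation test, p = 0.0419, adjusted p = 0.419). As shares of counts, which also depend on transcript length, *Eno1* made up 2.83% and 3.30% of enolase counts, *Hk2* 1.35% and 1.92% of those of both hexokinases, *Aldoc* 39.04% and 38.9% of aldolase counts and *Pfkm* 31.5% and 28.6% of phosphofructokinase counts in hippocampus and frontal cortex. The share of *Eno1* is uncertain, since 23.7% of its 69-base windows occur in other genes, against 0% of those of *Eno2*.

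Separate cohorts vary by more than counting, and the spread of the set was set beside that of all genes. The coefficient of variation (SD over mean CPM) ran from 15.3% (*Aldoc*) to 149.7% (*Gbe1*) in hippocampus, with a median of 47.5%, and from 11.8% (*Aldoc*) to 118.6% in frontal cortex, with a median of 38.1%. It was 2.47 to 7.60 times the value that counting error alone gives in hippocampus (median 4.14) and 2.05 to 6.70 times in frontal cortex (median 3.57). The genes averaging at least 100 counts per library (16 in hippocampus and 15 in frontal cortex) had median coefficients of 25.1% and 18.1%, or 4.53 and 3.67 times counting error, beside 30.2% and 24.6%, or 4.32 and 3.60 times, over all 2522 and 2724 genes with as many counts. The 6 genes under 20 counts in each region had medians of 121.4% and 106.4%.

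**Figure D5:**
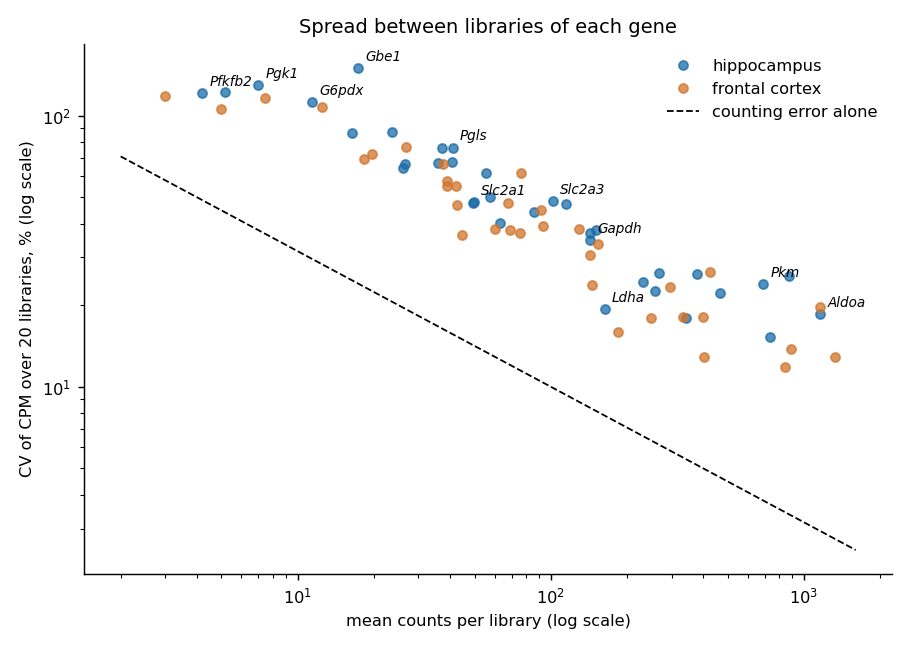
Coefficient of variation of CPM over the 20 libraries of a region against mean counts per library, both on log axes, with 1 point per gene and region and the dashed line at counting error alone. The points lie above the line, as those of all genes with at least 100 counts do, and *Aldoc* has the lowest coefficient in both regions.

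Over 20 cohorts, the Pearson correlation of log2 CPM between regions had a median of 0.00496 over the 35 genes (from -0.34 for *Pygb* to 0.42 for *Pgd*). The lowest permutation p of the 35 was that of *Eno2* (rho = 0.45, permutation p = 0.0498, adjusted p = 0.974, beside Pearson r = 0.42, permutation p = 0.0627, adjusted p = 0.983). Without the 2 cohorts farthest from the median its r was 0.41, and within the pre-KD and post-KD cohorts it was 0.30 and 0.69. Over the 16355 genes tested in both regions the median was -5.01e-05. Relations with cell markers were tested for 6 pairs of a gene and the cell type it is known to mark, in each region. Of these 12 relations 0 passed after adjustment, and the lowest p was that of *Slc2a1* with the summed endothelial markers in frontal cortex (Pearson r = 0.54, permutation p = 0.0147, adjusted p = 0.176, Spearman rho = 0.37 with permutation p = 0.11 and adjusted p = 0.50, n = 20 libraries). It fell to r = 0.32 without the 2 libraries farthest from the median, and was 0.34 within the pre-KD condition and 0.66 within the post-KD one. In hippocampus the same relation gave r = -0.23 (permutation p = 0.323, adjusted p = 0.553, rho = -0.23).

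The other genes of these pathways, 74 that were not in the set (further transporters, isozymes, glycogen regulators, gluconeogenic enzymes and transcription factors), gave 0 adjusted calls in every comparison by edgeR. Between conditions, 2 of 59 tested (3.39%) had an unadjusted p under 0.05 in hippocampus and 4 of 62 (6.45%) in frontal cortex, below the 10.1% and 9.68% of all genes. They are named for that unadjusted p alone. In hippocampus these were *Slc2a10*, with 0 counts pre-KD and 27 in 3 post-KD libraries, and *Stbd1*, a glycogen-binding protein, with 19 counts in 3 pre-KD libraries and 0 post-KD. In frontal cortex *Hif1a*, the oxygen-sensitive activator of glycolytic genes, was at a log2 difference of 0.57 (interval 0.03 to 1.11, adjusted p = 0.450 by edgeR), and *Pgm1*, phosphoglucomutase, at 0.66 (interval 0.12 to 1.21, adjusted p = 0.284 by edgeR). *Pklr*, the liver pyruvate kinase, had 3 counts pre-KD and 33 post-KD, 26 of them in 1 library, and *G6pc*, glucose-6-phosphatase, 1 and 15, 14 of them in 1 library. Between regions 0 of 65 passed the adjusted threshold and 3 the unadjusted one, beside 2.85% and 10.9% of all genes, and for the interaction 0 and 1 of 65 did, beside 0.0154% and 2.22%.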

How the data were processed

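The authors deposited, as 1 table per region, raw read counts per Ensembl gene for 40 libraries. Per the labels and the methods, RNA of 6 mice was pooled per cohort, paired 69-base reads were trimmed with bbduk, aligned to mm10 with STAR 2.5.2a and counted with HTSeq-count 0.6.0. The annotation release and the strand setting are not given in the sources used here. Depth was 1140756 to 2095352 counts per library, and no 2 libraries were identical. The 35 genes and all lists were chosen with earlier results of these data known.

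Genes with at least 10 summed counts were tested with edgeR 4.0.16 (quasi-likelihood, TMM) in R 4.3.3, without a donor term between conditions and with a cohort term between regions, and p-values were adjusted over all genes by Benjamini-Hochberg. Intervals are 95% intervals. Ratios used counts plus 1 and 100000 permutations (numpy 2.4.6), and the ranks for rho came from scipy 1.17.1. Full statistics were given for the genes called at the adjusted or unadjusted threshold, for *Slc2a1*, *Hk1*, *Gapdh*, *Pkm*, *Ldha*, *Ldhb* and *G6pdx* between conditions, and for isozymes between regions. Alternatives used DESeq2 1.42.0, limma 3.58.1, other filters and scalings, blocks and left-out donors, and an alternative without the cohorts with Y-linked counts was chosen after seeing the data. The scripts were tested on simulated data. Positions come from GENCODE M21 (GRCm38, 47224 of 47643 identifiers matched) and promoters from RefSeq (GRCm38.p6).

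The donor number pairs pre-KD and post-KD cohorts by design. Deviations from the group means correlated between the libraries of a donor by -0.03 to 0.03 in hippocampus and by -0.04 to 0.03 in frontal cortex over 8157 genes averaging at least 20 counts, with 0 of 10 pairs above 0.1 in each region. Between both regions of a cohort the correlation was -0.03 to 0.19.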

Additional observations from a re-analysis of the deposited data

Results flagged for a closer look

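Among 140 groups of 10 libraries (35 genes in 4 groups), 18 values stood apart from the other 9 libraries of their group by Dixon's test. Chance gives such a value in about 1 in 20 groups only where values are normally distributed. CPM were tested untransformed, and some groups hold values of 0, so the 18 are not shown to exceed chance. No cause was tested. *Gpd1l* had the most, at 98.6 CPM in the pre-KD hippocampal library of donor 1 (next value 54.2), 97.1 CPM in the pre-KD frontal cortical library of donor 10 (next value 56.2) and 133.1 CPM in the post-KD frontal cortical library of donor 9 (next value 72.3). The hexokinase *Hk2* was high in both regions of the pre-KD cohort of donor 1, at 14.9 CPM in hippocampus (25 counts) and 22.6 CPM in frontal cortex (29 counts), and *Tpi1* was at 208.5 CPM in the latter library. The branching enzyme *Gbe1* reached 72.1 CPM in post-KD hippocampus of donor 8, where the phosphorylase *Pygm* reached 78.0 CPM, and 48.9 CPM in post-KD frontal cortex of donor 7. In post-KD hippocampus *Ugp2* stood at 62.4 CPM for donor 7 and *Pfkfb2* at 6.95 CPM for donor 1. In pre-KD hippocampus *Slc2a3* stood at 114.2 CPM for donor 10, *Pgk1* at 22.5 CPM for donor 6, *Pgd* at 57.4 CPM for donor 7 and *Rpia* at 54.1 CPM for donor 9. Low values were those of *Hk1* at 128.0 CPM in pre-KD hippocampus of donor 5, *Pfkfb3* at 2.89 CPM in post-KD frontal cortex of donor 8 and *Pkm* at 441 CPM in pre-KD frontal cortex of donor 9.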

How the results depend on the processing

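Of 752 values of the named genes recomputed under the alternatives (41 results), 693 kept their direction and their side of the threshold, 21 of 3 results (*Eno2*, *Pkm* and *Pgls* between regions) no longer passed it, and 38 of 12 results changed sign, all among differences that did not pass. The 5 calls between regions became 3 with RLE size factors, 2 with limma-voom and 3 with the donor as the block in place of the cohort, and ran from 3 to 5 when 1 donor at a time was left out. Without any replicate block there were 4, and 4 without the cohorts with Y-linked counts. The shares of all genes called in these 5 settings were 2.79%, 2.64%, 2.63%, 10.8% and 2.48%. The count of calls between conditions stayed at 0 in both regions in every alternative, and the replicate block (the donor) changed no other call. Over all genes, calls in hippocampus between conditions rose from 1 to 1291 with no gene filter, in frontal cortex from 1 to 12 with the donor block in DESeq2, between regions from 554 to 1033 with DESeq2 and 2101 without the cohort block, and for the interaction from 3 to 348 without it, and fell to 0 with DESeq2. The cause was not tested.

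Between conditions, *Gapdh* in hippocampus turned to 0.0832 with limma-voom and to 0.0772 without the cohorts with Y-linked counts, *Slc2a1* to 0.0945 in hippocampus and -0.16 in frontal cortex without those cohorts, and *G6pdx* in frontal cortex to -0.263 with limma-voom and to -0.0197 and -0.0222 with the donor block in edgeR and DESeq2. Leaving out 1 donor at a time gave -0.414 to 0.00631 for *Slc2a1*, -0.125 to 0.0465 for *Pkm*, -0.215 to 0.055 for *Gapdh* and -0.109 to 0.0142 for *Ldha* in hippocampus, and -0.102 to 0.164 for *Slc2a1* in frontal cortex. It gave -1.49 to -0.89 for *Pgls* in hippocampus, and 0.19 to 0.34 for *Ldhb*, -0.76 to -0.54 for *Ugp2*, -0.16 to -0.08 for *Pkm* and -0.17 to -0.06 for *Ldha* in frontal cortex. Between regions, *Gpd1* turned to -0.0492 with limma-voom, -0.00477 without a replicate block and -0.0300 with the donor block, *Pygm* to 0.0651 with limma-voom and 0.0484 with the donor block, and *Pygb* to -0.0557 without the cohorts with Y-linked counts. The left-out donors gave -0.0832 to 0.211 for *Pfkl*, -0.0333 to 0.122 for *Pfkm*, -0.235 to 0.433 for *Pfkfb2*, -0.212 to 0.117 for *Pygm* and -0.00944 to 0.142 for *Pygb* between regions.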
